A study of Mus musculus with 6 samples.

Results

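The dyads described here are CG sites whose cytosines were both read as 5-hydroxymethylcytosine (5hmC) many times over, while neither was listed as 5-formylcytosine (5fC). They come from E14 cells, an established line of mouse embryonic stem cells, grown on gelatin in medium with serum and LIF. They were chosen from pooled read numbers. A CG dyad on chromosomes 1 to 19 was kept if both of its cytosines were in the 5hmC list, if these held at least 33 5hmC reads together, and if neither cytosine was in the 5fC list. Of 11410464 autosomal CG dyads listed for either mark, 460924 met this rule. They were 4.14% of the 11135596 autosomal dyads with any 5hmC and 10.4% of the 4450086 dyads with 5hmC on both strands.

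The TET enzymes oxidise 5-methylcytosine to 5hmC and can oxidise 5hmC on to 5fC, which the glycosylase TDG removes from DNA. Embryonic stem cells express TET enzymes and TDG, their 5hmC is far more abundant than their 5fC, and a cytosine that carries 5hmC need not be carried on to the next step. A CG reads the same on both strands, so each dyad offers a pair of cytosines to these enzymes.

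The libraries were made with Pvu-Seal-seq, in which the enzyme PvuRts1I cuts at a set number of bases from a modified cytosine and tagged fragments are pulled down, so that each cut end leads back to a cytosine. PvuRts1I prefers a pair of cytosines on opposite strands with the cut between them. The labels describe 2 technical replicate libraries of 5fC from a culture at passage 14, 2 of 5hmC from the same culture, and 2 of 5hmC from a culture at passage 12. The labels give no treatment and no genetic change for any of the 6, and no control library was used here.

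Each table held 1 pooled read number per cytosine, 264008048 reads at 20807956 cytosines for 5hmC and 102305049 reads at 6248342 cytosines for 5fC, with at least 2 reads at each. No value has a replicate error, no test between groups was possible and no p-value is given. The 95% intervals cover counting error only, over dyads or, for 5fC at neighbouring dyads, over pairs of a deep dyad and a neighbour. A neighbour of several deep dyads is counted for each of them, so the intervals over pairs are too narrow even for counting error. Neither neighbouring dyads nor reads lacking molecular identifiers are independent. A cytosine missing from the 5fC list is not shown to lack 5fC, because how that list was drawn up is not given in the sources used. Over both tables there were 0.387 5fC reads per 5hmC read, a rate at which 33 5hmC reads would stand beside 12.8 5fC reads. That rate is taken over all listed cytosines of every kind and is not the number expected at a dyad of 33 reads.

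Dyads with this depth and no 5fC were a minority of the dyads that could have met the rule. Among 1625864 autosomal dyads with 5hmC on both strands and at least 33 reads (deep dyads from here on), 28.3% had no 5fC (interval 28.3 to 28.4%). Another 45.9% (746090 dyads) had 5fC on 1 strand and 25.8% (418850 dyads) had it on both. These 1164940 deep dyads with 5fC are the comparison group below. All of these shares follow from the values that chose the dyads and are given as a description.

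The share without 5fC fell steadily as 5hmC reads increased, with no step at the limit of 33. It was 88.5% at 4 reads, 60.5% at 25 reads, 28.2% at 50 reads, 4.90% at 100 reads and 1.06% at 150 reads. Just inside the limit, 34151 dyads of exactly 33 reads had no 5fC, 48.6% of all dyads with that number. Just outside it, the 36777 dyads of 32 reads without 5fC made up 49.9%. The limit therefore divides a continuous distribution.

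**Figure D1:**
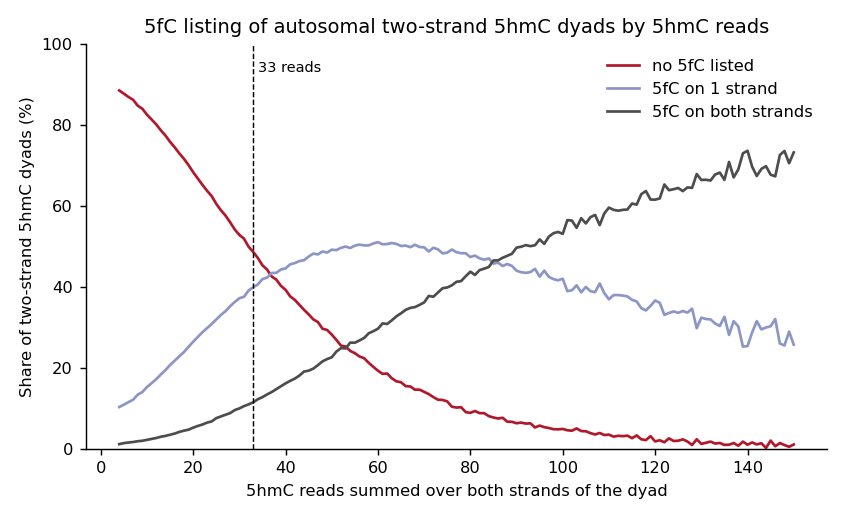
Share of autosomal dyads with 5hmC on both strands (vertical axis, %) that had no 5fC, 5fC on 1 strand or 5fC on both strands, against the 5hmC reads summed over the strands (horizontal axis, 4 to 150 reads); the dashed line marks 33 reads. The share without 5fC is 48.6% at 33 reads and 4.90% at 100 reads, while 5fC on both strands reaches 53.1% at 100 reads.

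The chosen dyads were therefore mostly close to the limit. Their median was 41 reads (25th to 75th percentile 36 to 50, 95th percentile 70), against 52 reads (41 to 69, 95th percentile 107) in the deep dyads with 5fC. Only 2073 of them (0.450%) had over 100 reads, against 76320 deep dyads with 5fC (6.55%). Because depth and 5fC listing moved together, most comparisons below weight the deep dyads with 5fC to the read distribution of the dyads without it, matching on the exact read number up to 150 reads. Such values are called standardised. Shares weighted in another way are named as such, and other values are unweighted.

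The deepest dyads without 5fC show how varied their surroundings were; positions are in the mm9 build and no gene is named, since no annotation of that build was used here. The deepest lay on chromosome 4 at 147155132 to 147155133, with 178 reads on the plus strand and 43 on the minus strand. It had 2 other 5hmC dyads within 1 kb, of which 1 carried 5fC, and no non-CG partner, as defined further below. The next, on chromosome 9 at 3001043 to 3001044, held 210 plus-strand reads but 2 minus-strand reads. It lay 19 bases from a dyad with 5fC, in a stretch where 15 of 16 other dyads within 1 kb carried 5fC and 1 dyad reached 5725 5hmC reads. It had 1 non-CG partner, which was not listed for 5fC.

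The third was read evenly from both strands. It lay on chromosome 11 at 116619580 to 116619581 with 106 plus-strand and 92 minus-strand reads, 15 bases from a dyad with 5fC. It had 1 non-CG partner on each strand, and these 2 partners were listed for 5fC. On chromosome 8 the dyad at 81085706 to 81085707 had 131 and 60 reads on the plus and minus strand, with 12 of 17 dyads within 1 kb carrying 5fC. Of its non-CG partners, 2 were listed for 5fC. Also on chromosome 8, the dyad at 97893055 to 97893056 had 133 and 49 reads and lay 355 bases from the nearest dyad with 5fC. Its 1 non-CG partner was not listed for 5fC. In 4 of these 5, at least 12 dyads within 1 kb carried 5fC, so missing 5fC at the dyad itself did not mark a 5fC-free stretch there.

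Reads were divided somewhat more evenly between the strands of dyads without 5fC. The weaker strand held at least 33.3% of the reads in 45.8% of them, against a standardised 40.4% of deep dyads with 5fC, a difference of 5.48 percentage points (interval 5.30 to 5.66). Over dyads without 5fC, the median was 29 reads for the stronger strand and, taken separately, 13 for the weaker strand. The standardised difference was 7.12 points (6.93 to 7.32) against dyads with 5fC on 1 strand and 1.98 points (1.72 to 2.23) against dyads with 5fC on both. With at least 10 reads required on each strand it was 2.60 points. Where 5fC was on 1 strand, it was on the strand with more 5hmC reads in 75.8% of 737890 untied dyads, so the reads of the stronger strand moved with 5fC listing; their part in the difference was not tested.

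Over all dyads without 5fC the strands were nearly equal, with 10393237 plus-strand and 10424238 minus-strand reads. A strand with as few as 2 reads, the least the list holds, occurred in 1.73% of dyads without 5fC and a standardised 2.40% of those with it.

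**Figure D2:**
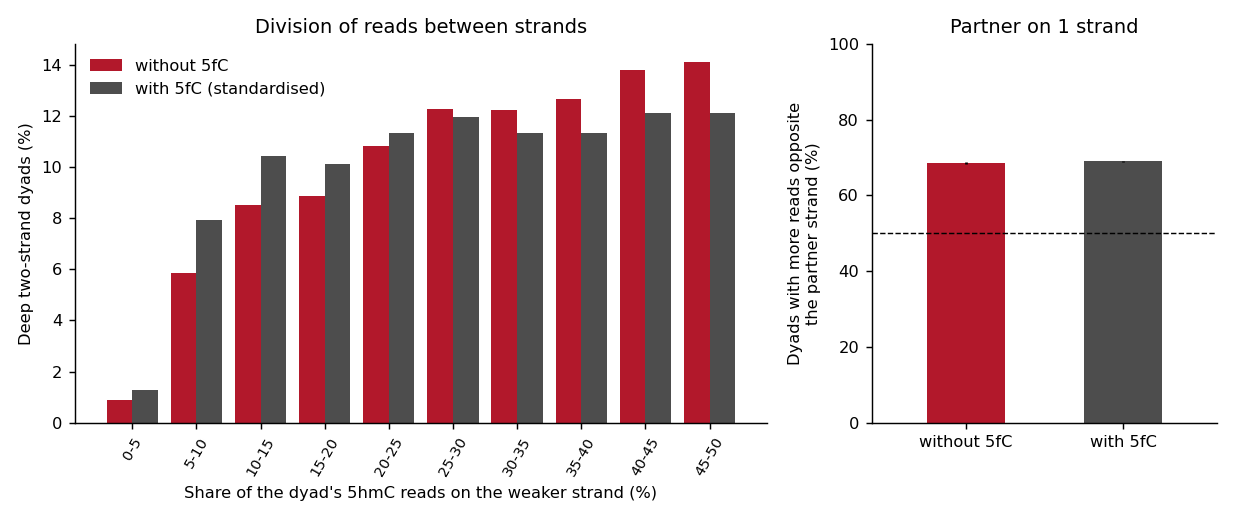
Left, share of deep dyads (vertical axis, %) by the share of their 5hmC reads on the weaker strand (horizontal axis, classes of 5 percentage points), for dyads without 5fC (red) and dyads with 5fC standardised to the same reads (grey). Right, among dyads with a non-CG partner on 1 strand, the share with more reads on the opposite strand, not standardised, with 95% Wilson intervals; the dashed line is 50%. The red bars are higher from 25% upwards, and the bars at right stand at 68.5% for dyads without 5fC and 69.0% for dyads with 5fC.

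5fC was listed at many 5hmC dyads close to those without it, at a share that stayed between 39.4% and 40.8% in each distance class up to 1 kb except that of 20 to 23 bases. Of 5hmC dyads within 100 bases of a dyad without 5fC, 40.6% carried 5fC, against a standardised 57.2% around deep dyads with 5fC, a difference of -16.6 points (interval -16.7 to -16.5). Within 500 bases the difference was -10.0 points. Around dyads without 5fC the share was 39.4% at 2 to 9 bases, 39.6% at 51 to 100 bases, 40.1% at 501 to 1000 bases and 38.5% at 5001 to 10000 bases. Around deep dyads with 5fC the standardised share was 62.1%, 54.6%, 44.2% and 40.2% at the same distances.

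The groups thus differed most near the dyad, by -22.6 points at 2 to 9 bases, and by -1.68 points (-1.70 to -1.66) at 5001 to 10000 bases. Over these classes the share declined with distance around dyads with 5fC and varied little around dyads without 5fC. At the single distance of 2 bases, where the dyads adjoin, it was lower in both groups, at 30.9% of 4725 neighbours around dyads without 5fC and a standardised 51.1% around dyads with 5fC, against 39.7% and 63.2% at 3 bases. Neighbours were also fewer around dyads without 5fC, at 0.927 per dyad at 51 to 100 bases against 1.12 around dyads with 5fC, before standardising.

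At 20 to 23 bases both groups had a peak. Of the CG dyads that far from a dyad without 5fC, 50.1% carried 5fC, against a standardised 68.7% around deep dyads with 5fC. At 21 bases the share was 52.0% around dyads without 5fC and a standardised 69.7% around those with it, and at 24 bases it was 39.4% around dyads without 5fC and a standardised 56.9% around those with it. Whether reads at a pair of dyads so spaced can come from the same cuts was not tested. The difference between the groups was -18.6 points at 20 to 23 bases and -16.4 points at 24 to 50 bases.

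**Figure D3:**
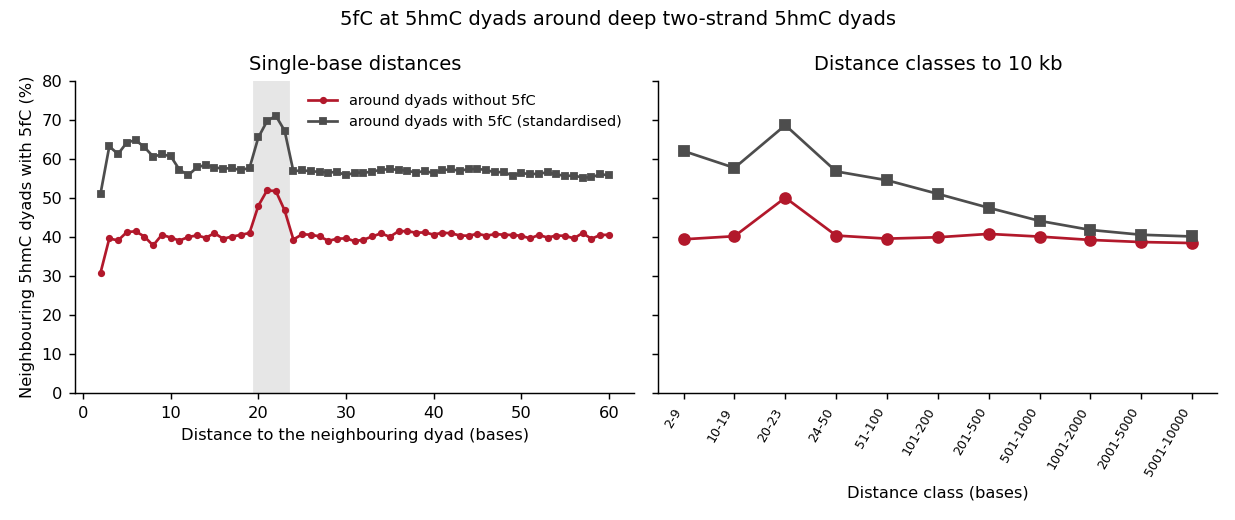
Share of neighbouring 5hmC dyads that carried 5fC (vertical axis, %) against their distance from a deep dyad, by single bases from 2 to 60 (left; grey band, 20 to 23 bases) and by distance classes up to 10 kb (right), around dyads without 5fC (red) and around dyads with 5fC standardised to the same reads (grey). The red line lies at 30.9% at 2 bases, between 37.9% and 41.5% at the other single-base distances outside 20 to 23 bases, and at 52.0% at 21 bases, and the difference shrinks to -1.68 points at 5001 to 10000 bases.

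Neighbours of dyads without 5fC also had fewer 5hmC reads of their own. At 24 to 100 bases, 24.3% of them had 2 to 8 reads and 4.59% had at least 65 reads, against a standardised 20.5% and 6.94% around deep dyads with 5fC. The 5fC share was lower within every class of neighbour reads. These classes are wide and the neighbours' reads were not matched within them, so the part of those reads in the difference was not tested. Among neighbours of 2 to 8 reads it was 18.9% around dyads without 5fC and a standardised 31.0% around dyads with 5fC. Among neighbours of 33 to 64 reads it was 66.4% around dyads without 5fC and a standardised 77.6% around those with 5fC, a difference of -11.2 points (-11.5 to -10.9). Among neighbours of at least 65 reads it was 89.5% around dyads without 5fC and a standardised 94.0% around those with 5fC.

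A dyad without 5fC more often had another such dyad as its nearest deep neighbour than a deep dyad with 5fC did. Where another deep dyad lay within 100 bases, the nearest was itself without 5fC for 31.0% of dyads without 5fC, against a standardised 18.9% of deep dyads with 5fC, a difference of 12.1 points (11.8 to 12.4), and 7.45 points among dyads of at least 50 reads. Membership of the neighbour comes from the same rule, so this is a description. By the gap to the following deep dyad, the standardised difference was 16.0 points at 2 to 10 bases, 7.52 points at 101 to 200 bases and 2.09 points at 501 to 1000 bases. Beyond 5000 bases the share was 41.3% after a dyad without 5fC and a standardised 41.1% after one with 5fC, a difference of 0.224 points whose interval of -0.487 to 0.935 includes 0.

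Runs of such dyads were mostly of 1 dyad, where such dyads made up 28.3% of all deep dyads. Run lengths were not compared with what that share would give, nor with runs of deep dyads with 5fC. Taking successive deep dyads with gaps of at most 500 bases, 72.7% of dyads without 5fC were in runs of 1, which may adjoin a deep dyad with 5fC. Another 20.7% were in pairs, and 290 runs held 5 or more. The longest run held 8, on chromosome 15 from 12807683 to 12808464, with 34 to 68 reads per dyad. Of the 15 dyads with 5hmC in that stretch, 2 carried 5fC, together with 41 5fC reads. The next runs, chosen among those of 7 by their summed reads, lay on chromosome 11 from 119040929 to 119042264 with 43 to 87 reads per dyad, and on chromosome 4 from 44602500 to 44603216 with 35 to 103 reads. There 2 of 17 and 1 of 14 5hmC dyads carried 5fC. With 5 kb of flank on each side, the share of 5hmC dyads carrying 5fC was 37.6% for the run on chromosome 15, 53.9% for that on chromosome 11 and 33.1% for that on chromosome 4. Runs were selected for missing 5fC, so their low 5fC is not a finding.

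Listed cytosines outside CG were also most frequent at this pairing distance. For all results on them below, whether their reads and those of the dyad can come from the same cuts was not tested. In all, 46.7% of dyads without 5fC had a listed non-CG 5hmC cytosine 20 to 23 bases before the dyad along the strand of that cytosine (a partner), against a standardised 55.3% of deep dyads with 5fC, a difference of -8.58 points (-8.76 to -8.40), or -14.1 points without standardising. There were 21.2 such cytosines per 100 dyads without 5fC at 21 bases and 18.7 at 22 bases, but 0.317 at 19 bases and 0.576 at 24 bases. A partner was on 1 strand for 38.3% of dyads without 5fC and on both strands for 8.44%, against 46.2% and 14.6% of deep dyads with 5fC before standardising.

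Where the partner was on 1 strand, the dyad's cytosine on the opposite strand usually had more 5hmC reads. This held for 68.5% of 173767 untied dyads without 5fC (68.3 to 68.8%) and for 69.0% of 531979 dyads with 5fC (68.9 to 69.1%), without standardising. In dyads without 5fC the median was 27 reads on the cytosine opposite the partner strand and 16 on the other. Among dyads without 5fC and without a partner, the plus strand had more reads in 49.7% of untied dyads. The strand of the partner thus moved with the strand bias of the dyad to nearly the same degree in both groups.

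Some dyads without 5fC had a partner that was listed for 5fC. Of those with a partner, 22.8% had a partner in the 5fC list, against a standardised 36.3% of deep dyads with 5fC, a difference of -13.5 points (-13.7 to -13.3). These 49165 dyads were 10.7% of all dyads without 5fC. More widely, a non-CG 5fC cytosine lay within 25 bases of 21.4% of dyads without 5fC and of a standardised 37.0% of those with it, a difference of -15.6 points (-15.8 to -15.5). At the read distribution of dyads without 5fC, such dyads made up 38.7% of deep dyads with no partner, 34.8% of those whose partner was not listed for 5fC and 21.5% of those whose partner was.

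**Figure D4:**
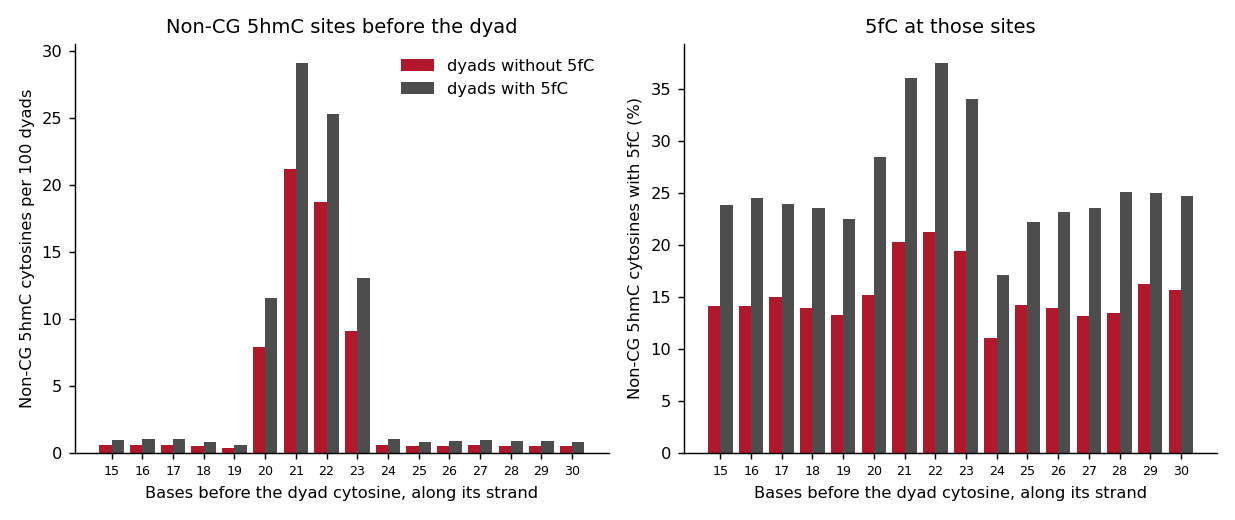
Left, non-CG 5hmC cytosines per 100 deep dyads (vertical axis) by their distance before the dyad cytosine along their strand (horizontal axis, bases), for dyads without 5fC (red) and with 5fC (grey), not standardised; right, the share of those non-CG cytosines that were listed for 5fC (%). Both groups peak at 21 bases in number, and the 5fC share is highest at 22 bases, at 21.2% for dyads without 5fC and 37.5% for dyads with 5fC.

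Deep dyads without 5fC took a larger share where 5hmC was sparse. Only 80.7% of them had another 5hmC dyad within 100 bases, against a standardised 86.9% of deep dyads with 5fC, a difference of -6.27 points (-6.40 to -6.13). Within 500 bases nearly every deep dyad had one, 99.1% of those without 5fC and a standardised 99.5% of those with it. Counted by the number of other 5hmC dyads within 1 kb, and weighting 6 read classes to the dyads without 5fC, their share of deep dyads was 48.9% with none (46.5 to 51.2%), 44.6% with 3 to 5, 34.9% with 15 to 19 and 20.2% with 50 or more (19.2 to 21.1%). The share declined in each successive class. Dyads with neither another 5hmC dyad within 100 bases nor a non-CG partner were 14.1% of dyads without 5fC and a standardised 8.73% of deep dyads with 5fC.

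The same order was seen over windows of 100 kb. In the densest 10% of windows by 5hmC dyads, dyads without 5fC made up a standardised 31.1% of deep dyads, against 44.3% in the sparsest 10%, a difference of -13.1 points (-14.1 to -12.1). Even so, only 32352 dyads without 5fC (7.02%) had no dyad with both marks within 1 kb, against a standardised 3.68% of deep dyads with 5fC. Closer in, 46.1% of dyads without 5fC had no dyad with both marks within 100 bases and no non-CG 5fC within 25 bases. Before standardising, this held for 24.9% of deep dyads with 5fC.

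**Figure D5:**
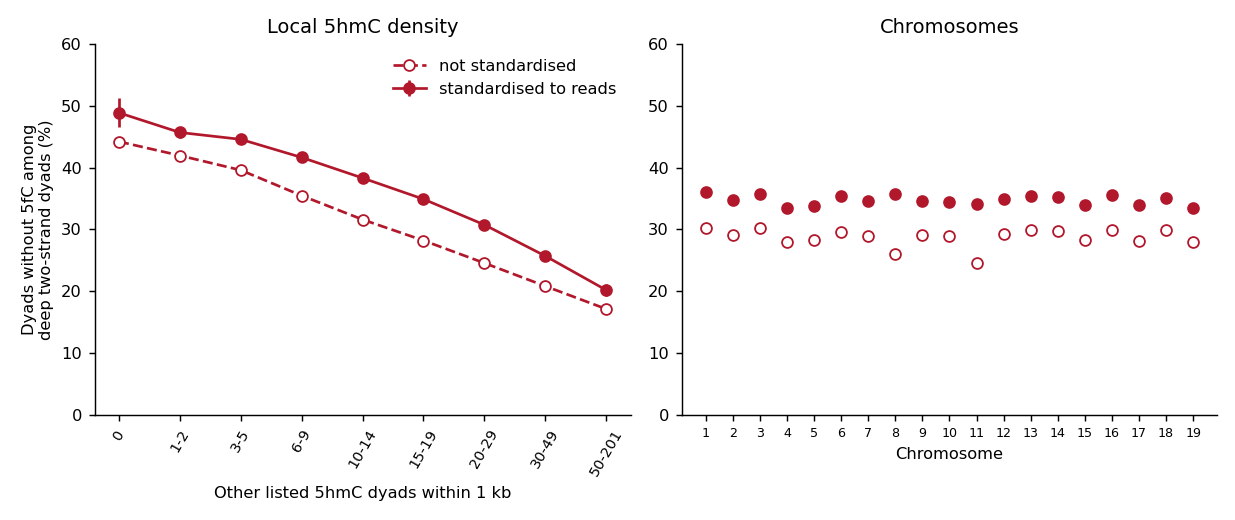
Dyads without 5fC as a share of deep dyads (vertical axis, %), by the number of other 5hmC dyads within 1 kb (left) and by chromosome (right), standardised to the reads of dyads without 5fC (filled, with 95% intervals) and not standardised (open). The standardised share falls to 20.2% in the densest class, and the open points of chromosomes 8 and 11 lie below those of the other autosomes while the filled ones lie among them.

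Chromosomes 8 and 11 stood apart in depth. Their pooled standardised share without 5fC differed little from that of the other autosomes and in no fixed direction across settings. Deep dyads were 21.4% of the 5hmC dyads of chromosome 8 and 22.9% of those of chromosome 11, against 12.2 to 14.8% for the remaining 17 autosomes, and dyads without 5fC were 5.59% and 5.60% of 5hmC dyads, against 3.69 to 4.13%. As a share of deep dyads, those without 5fC came to 26.1% for chromosome 8 and 24.5% for chromosome 11, against 28.0 to 30.3% elsewhere. Standardised, the share was 35.1% on chromosomes 8 and 11 together and 34.9% on the other autosomes, a difference of 0.183 points whose interval of -0.0410 to 0.406 includes 0. With at least 10 reads on each strand it was 0.354 points (0.0830 to 0.626) and with at least 50 reads 0.876 points (0.612 to 1.14), intervals that do not include 0. It turned to -0.586 points with at least 25 reads and to -3.89 points without standardising.

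Among 11281 windows of 100 kb with at least 50 deep dyads, the median share without 5fC was 28.1% and the 5th to 95th percentile was 19.1 to 40.2%. The windows with the most were all on chromosome 8, from 126800001 to 126900000 with 104, from 111400001 to 111500000 with 103 and from 49500001 to 49600000 with 101. In these, the share of deep dyads without 5fC was 26.1%, 26.0% and 33.3%.

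The highest shares were on chromosome 18, at 56.0% of 50 deep dyads from 42900001 to 43000000 (42.3 to 68.8%) and 55.8% of 52 from 54700001 to 54800000, and on chromosome 11, at 55.0% of 60 from 44100001 to 44200000. Between 17.6% and 23.3% of all 5hmC dyads in these windows carried 5fC. That share counts the dyads used to pick the windows, so its low value is not a finding. The windows named here, high and low, were picked as extremes, and their intervals do not allow for that choice. The lowest shares were 3.03% of 396 deep dyads on chromosome 11 from 3000001 to 3100000 (1.74 to 5.22%), 5.41% of 74 on chromosome 8 from 19900001 to 20000000 and 10.6% of 141 on chromosome 17 from 39900001 to 40000000. Median reads of deep dyads were 316, 252 and 65 in these low windows and 41 or 42 in the high ones, so depth moved with the share; its part was not tested within windows.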

How the data were processed

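The authors deposited 2 tables, of 5hmC and of 5fC, holding whole-number read counts per listed cytosine, pooled over libraries and not normalized. CASAVA, bcl2fastq, cutadapt and Bowtie, with build mm9, are named per the submitters' processing notes. The assignment of cuts to cytosines, the definition of common sites, the preparation of 5fC libraries and whether the culture at passage 12 enters the 5hmC table are not given in the sources used. Cytosines were joined into CG dyads by position and strand, with 0 repeated positions in either table. Deep dyads with 5fC were weighted to the 5hmC reads of those without it, exactly up to 150 reads and then in 2 classes; intervals are 95% Wilson or normal ones.

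The dyads and comparisons were chosen with earlier results of these data known. The text names the 5 deepest dyads, the 3 longest runs, and 3 windows of each kind by rule. No sequence or gene is shown without an mm9 genome. Functions passed 5 of 5 checks on simulated data with 20000 or 200000 dyads. Python 3.11.15, numpy 2.4.6 and pandas 2.3.3 were used.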

Additional observations from a re-analysis of the deposited data

Results flagged for a closer look

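Chromosome X lies outside the rule, which takes autosomes, and is listed because dyads of the same kind occurred in data that the comparisons above do not use, with no control sample to set them against. It held 2942 dyads with 5hmC on both strands, at least 33 reads and no 5fC, of 8000 deep dyads (36.8%, interval 35.7 to 37.8%). Weighted to the reads of the autosomal dyads without 5fC the share was 36.7%, against 33.5 to 36.0% on the autosomes. Deep dyads were 3.08% of the 5hmC dyads on X, against 12.2 to 22.9% on the autosomes. Of 5hmC dyads within 100 bases of those without 5fC, 29.2% carried 5fC on X, against 40.6% on the autosomes. The neighbours' own reads were not matched between X and the autosomes, and the part of depth in this gap was not tested.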

How the results depend on the processing

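No paired analysis was possible because library values are already summed into 1 number per cytosine, and no library could be left out. Differences are in percentage points, dyads without 5fC minus deep dyads with it, standardised unless stated; intervals over so many dyads are so narrow that small moves are listed too, and the cause of a move was not tested. Apart from chromosomes 8 and 11, each difference kept its sign in each alternative run. The share without 5fC moved most with the read limit, to 36.4% with at least 25 reads and 15.8% with at least 50, and it was 27.8% with at least 10 reads on each strand and 31.3% when 5fC cytosines under 5 reads were ignored.

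With at least 25 reads the differences were 4.97 for strand balance, -17.4 for 5fC at neighbours, -7.22 for having a 5hmC neighbour, -16.0 for non-CG 5fC within 25 bases, -9.79 for partners, 14.6 for dyads without 5fC beside each other, -15.6 for window density (densest minus sparsest windows) and -0.586 for chromosomes 8 and 11 minus the others. With at least 50 reads they were, in the same order, 6.25, -15.7, -5.32, -15.2, -6.26, 7.45, -9.27 and 0.876, with -13.7 for 5fC at partners. Without standardising they were 5.25, -18.6, -5.83, -20.1, -14.1, 13.3, -15.5 and -3.89, with -18.3 for 5fC at partners. Ignoring 5fC cytosines under 5 reads gave 5.69, -16.4, -5.94, -14.8, -8.08 and 12.8 for the leading 6 of these, and -12.9 for 5fC at partners. With at least 10 reads on each strand, strand balance was 2.60 and partners -9.19. Without chromosomes 8 and 11, 5fC at neighbours was -16.2, non-CG 5fC -15.0 and 5fC at partners -12.9. Within 500 bases, 5fC at neighbours was -10.0, having a 5hmC neighbour -0.401 and dyads beside each other 9.11. 5fC at neighbours was -15.3 when also matched on dyads within 1 kb. Strand balance was 3.71 at a weaker strand of at least 40%, and window density -14.7 in windows of 10 kb. Matching also on the stronger strand's reads, chosen after the data were seen, gave -16.5 for 5fC at neighbours and -8.90 for partners. The other 19 alternative values lay within the reported intervals.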

Other observations

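The non-CG partners of dyads without 5fC were CA in 43.6%, CT in 34.7% and CC in 21.7% of 262214 cases, against 43.1%, 34.4% and 22.5% of the 920369 partners of deep dyads with 5fC. The partners held 7.68 5hmC reads on average beside dyads without 5fC and 10.4 beside deep dyads with 5fC, before standardising. Where dyads without 5fC had a partner on both strands, their reads were divided with at least 33.3% on the weaker strand in 55.2% of cases, against 44.8% with a partner on 1 strand and 45.1% with none. In deep dyads with 5fC these values were 51.9%, 39.3% and 37.9%.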
